A study of Homo sapiens with 15 samples.

Results

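The region described here is the imprinted domain of IGF2 and H19 on human chromosome 11, taken as the hg19 window chr11:1950000-2250000. Its members are the ChIP-seq peaks whose summit lies in that window, in any of the 6 deposited peak lists. There were 33 such peaks of 198298 in all. SMC3 gave 17 in TF-1 cells expressing RAD21 Q592* and 15 in TF-1 cells expressing wild-type (WT) RAD21, GATA2 gave 1 in Q592* and 0 in WT, and RUNX1 gave 0 in both lines.

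TF-1 is a human erythroleukemia cell line. Both lines carried an inducible vector, for RAD21 with a premature stop codon (Q592*) or for WT RAD21, and all libraries of both lines came from cells kept in doxycycline for 6 days. The 15 libraries were 2 each for GATA2 and SMC3, 1 for RUNX1 and 2 inputs in Q592*, and 2 each for GATA2, RUNX1, SMC3 and input in WT. Each list is named as a merge of its group and was read as 1 call on the pooled libraries, without a value for any single library. There is thus no replicate spread, no difference between the lines was tested, and the 95% intervals below cover counting error only. The labels do not say whether a line is a clone or a mixed population, nor describe the cells' own RAD21.

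SMC3 and RAD21 belong to cohesin, a ring of proteins that extrudes chromatin loops and comes to rest at sites bound by the zinc finger protein CTCF. IGF2 encodes a fetal growth factor and is expressed from the paternal chromosome, and H19 encodes a long noncoding RNA and is expressed from the maternal one. Between them, next to H19, lies an imprinting control region with an array of CTCF sites. On the maternal chromosome these are unmethylated and bound, and they insulate IGF2 from enhancers that it would otherwise share with H19; on the paternal chromosome methylation keeps CTCF away. GATA2 and RUNX1 are DNA-binding regulators of early blood cells. The peak lists do not tell the parental chromosomes apart, and expression, methylation and CTCF were not analysed here.

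In the order of the RefSeq annotation of GRCh38.p14, used for names alone, the genes from low to high coordinate are MRPL23, LINC01219, H19, IGF2, INS, TH and ASCL2, with IGF2 lying between H19 and the insulin gene INS. No hg19 annotation was used here, so the SMC3 sites are numbered 1 to 17 by position and are not assigned to exons or promoters. That the window holds H19, its imprinting control region and IGF2 is taken from its definition. Whether the other genes named lie inside the window was not checked, and the order may reach past its ends.

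SMC3 sites were dense in this window. The 17 peaks of Q592* amount to 56.7 per Mb and the 15 of WT to 50 per Mb, compared with 13.1 and 16.6 per Mb over the rest of chromosome 11 and 10.9 and 14.1 per Mb over all chromosomes. They fell into 5 groups separated by gaps of more than 10 kb. Site 1 stood alone at the low end. Sites 2 to 8 formed a tight run, sites 9 and 10 a pair, sites 11 to 14 a loose group and sites 15 to 17 another. The longest empty stretch, 112 kb, lay between sites 10 and 11. Outside the window the nearest SMC3 summits were 46.2 kb below its start and 76.8 kb (Q592*) or 76.7 kb (WT) above its end.

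**Figure D1:**
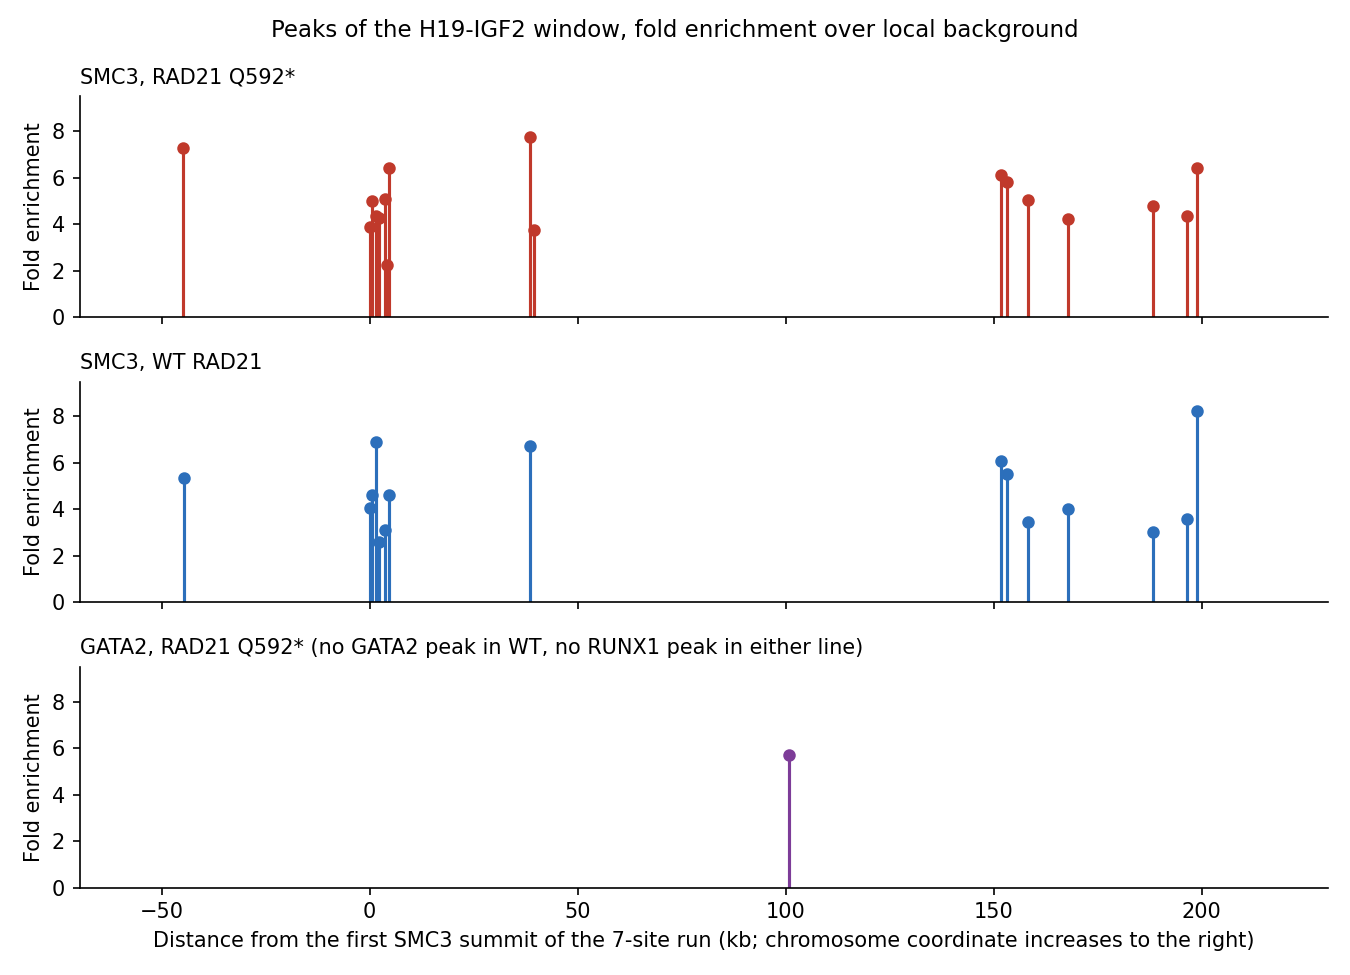
Fold enrichment of each peak in its own list (y axis) against the distance of its summit from the first summit of the 7-site run in kb (x axis), for SMC3 in Q592*, SMC3 in WT and GATA2 in Q592*. The SMC3 summits of both lines stand at the same places except for 2 weak Q592* sites, and the only GATA2 peak stands in the empty stretch of 112 kb.

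Nearly every SMC3 site of the domain was called in both lines. Joined by an overlap of at least 1 bp, the peaks formed 17 regions, of which 15 were shared, 2 were called in Q592* alone and 0 in WT alone. Over all 45109 SMC3 regions of the series 65.6% were shared, 6.84% were called in Q592* alone and 27.6% in WT alone. The WT peaks of the window were not all strong. By −log10 q in the WT list, 1 lay in the weakest quartile and 4 in the next, and in the whole list 24.0% and 61.7% of the peaks in these quartiles had a Q592* partner. The other 10 lay in the upper quartiles, 8 in the third and 2 in the strongest, where 96.8% and 100% of the list had one. All 15 WT peaks of the window had a partner, so most of the sharing concerns peaks of a strength at which nearly the whole list was shared. The summits of a shared site were close, with a median shift of 18 bp and at most 33 bp between the lines, against a median of 17 bp over all shared regions compared.

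The run of sites 2 to 8 spanned 4537 bp from first to last summit in Q592*, with 7 summits, and 4507 bp in WT, with 6. It reached from position 2019578 to 2024399. The steps from summit to summit were 539, 908, 786, 1453, 503 and 348 bp in Q592*, and 549, 914, 784, 1456 and 804 bp in WT, where site 7 was missing. The 4 steps between sites 2 and 6 were thus the same in both lines to within 10 bp, and the distance from site 6 to site 8 was 851 bp in Q592* and 804 bp in WT. The array of CTCF sites in the H19 imprinting control region is known from textbooks as such a run of repeats next to H19, but the coordinates of that region were not checked against an annotation here.

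**Figure D2:**
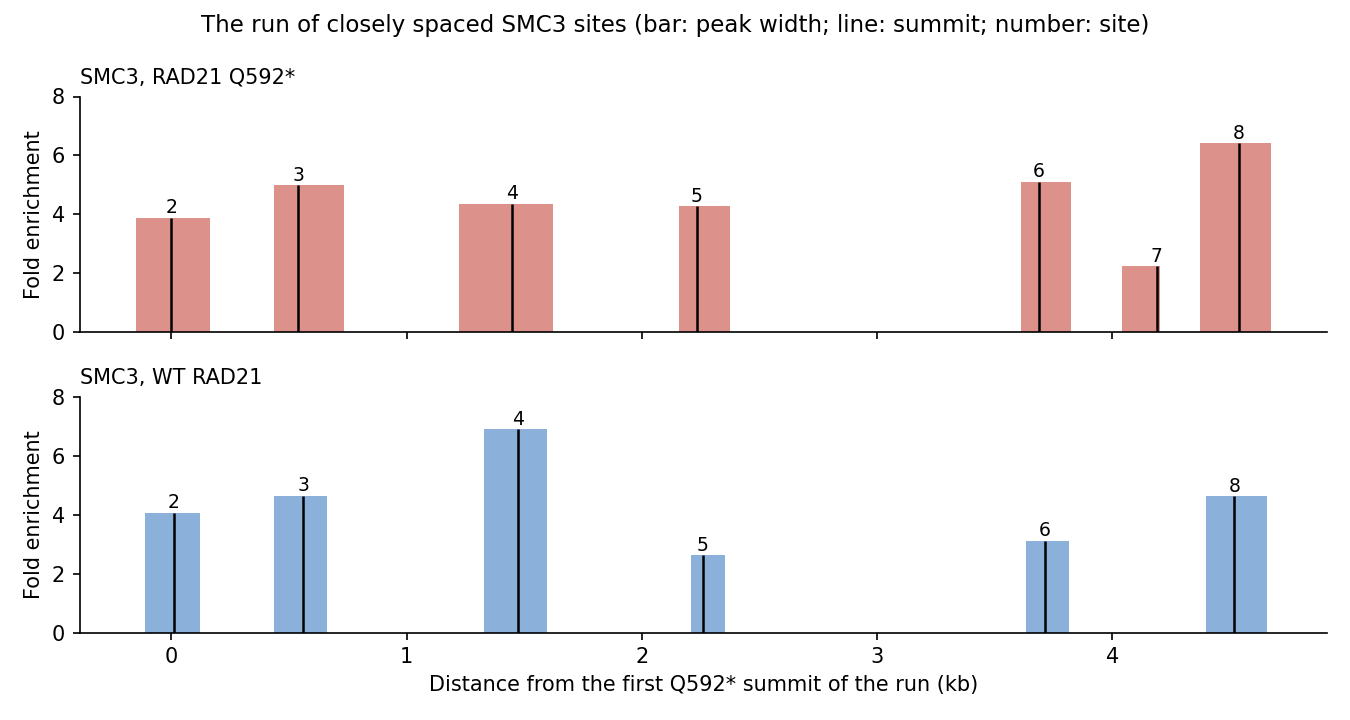
The run of closely spaced SMC3 sites, with the distance from its first Q592* summit in kb on the x axis and the fold enrichment in the site's own list on the y axis. Bars show the width of each peak and lines its summit. The same 6 positions appear in Q592* (top) and WT (bottom), and site 7 appears in Q592* alone.

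The fold enrichment of a peak is the authors' ratio of ChIP pileup at the summit to the local background, and its −log10 q is the adjusted significance of that summit. Both belong to their own list. Within the run, site 2 (summit at 2019726 in Q592* and 2019737 in WT) had a fold of 3.89 in Q592* and 4.06 in WT, with a −log10 q of 21.0 and 27.8. Site 3 (2020265 in Q592*, 2020286 in WT) had folds of 4.99 in Q592* and 4.64 in WT and a −log10 q of 25.7 and 28.4. Site 4 (2021173 in Q592*, 2021200 in WT) was by fold and −log10 q the strongest of the run in the WT list and not in the Q592* list. Its folds were 4.36 in Q592* and 6.90 in WT, with a −log10 q of 19.5 and 45.4.

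The rest of the run held its weakest sites and, in Q592*, its strongest. Site 5 (2021959 in Q592*, 2021984 in WT) had folds of 4.28 in Q592* and 2.62 in WT and a −log10 q of 9.05 and 6.15, the lowest of any shared site of the window in both lists. Site 6 (2023412 in Q592*, 2023440 in WT) had folds of 5.11 in Q592* and 3.11 in WT. Site 8 (2024263 in Q592*, 2024244 in WT) had folds of 6.41 in Q592* and 4.62 in WT, with a −log10 q of 37.0 and 29.5, the highest of the run in Q592*.

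Site 7, at 2023768 to 2023928, was called in Q592* alone and was barely above the limit of its list. Its fold was 2.24 and its −log10 q 2.54, where the lowest value of the list was 2.00, and 0.622% of the list was weaker. The nearest WT summit lay 329 bp away, at site 8. Of the 454 Q592* peaks within 0.5 of its −log10 q, 62.1% had a WT partner. The count of 7 sites against 6 in the run therefore turns on a peak near the −log10 q limit of its list.

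By −log10 q the strongest sites of the domain lay outside the run. Site 17 (2218611 in Q592*, 2218617 in WT), near the high end of the window, had a fold of 6.42 in Q592* and 8.22 in WT and a −log10 q of 56.6 and 88.2, which put it above 75.5% of the Q592* list and 88.3% of the WT list. Site 9 (2058310 in Q592*, 2058307 in WT), between the run and the empty stretch, had folds of 7.74 in Q592* and 6.75 in WT and a −log10 q of 71.6 and 71.5, above 82.9% and 83.5% of the lists. By −log10 q these were the top pair of the window in both lists, in opposite order. By fold the top pair was sites 9 and 1 in Q592* and sites 17 and 4 in WT.

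Site 10, at 2059119 to 2059281, stood beside site 9 and was the other site of Q592* alone. Its fold was 3.74 and its −log10 q 5.39, and 8.47% of its list was weaker. Of the 1200 Q592* peaks within 0.5 of its −log10 q, 64.8% had a WT partner.

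Sites 11 and 12 opened the group beyond the empty stretch. Site 11 (2171598 in Q592*, 2171600 in WT) had folds of 6.12 in Q592* and 6.09 in WT and a −log10 q of 15.7 and 21.5. Site 12 (2172836 in Q592*, 2172832 in WT) had folds of 5.82 in Q592* and 5.51 in WT, a −log10 q of 39.6 and 44.2, and was the widest peak of the window, at 889 bp in Q592* and 849 bp in WT. Only 0.900% of the Q592* list and 1.11% of the WT list were as wide as that. The medians of the lists were 331 and 268 bp. Of the 15 shared sites 14 were wider in Q592*, as were 63.3% of all shared regions compared.

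Of the other sites, site 1 (1974933 in Q592*, 1974964 in WT) had folds of 7.27 in Q592* and 5.37 in WT and a −log10 q of 32.5 and 30.1. The fold of site 1 was the second highest of the window in Q592*. Site 15 (2208105 in Q592*, 2208087 in WT) had folds of 4.78 in Q592* and 3.02 in WT and a −log10 q of 23.6 and 13.3. Sites 13, 14 and 16 had folds of 4.22 to 5.03 in Q592* and of 3.45 to 4.02 in WT. Over the window the median fold was 4.99 in Q592* and 4.62 in WT, each below the median of its list, which was 5.88 in Q592* and 5.18 in WT. The median −log10 q was 19.5 in Q592*, against 24.7 for its list, and 27.8 in WT, against 18.2 for its list. By that value 6 of 17 Q592* peaks and 10 of 15 WT peaks lay above their list's median. Ranks from lists of different length cannot show whether a site changed between the lines.

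The numbers of reads behind these values were recovered from the deposited fold and p-value of each peak, which together fix a whole number of ChIP reads at the summit and the local background in reads. At site 17 there were 164 ChIP reads in Q592* (95% Poisson interval 140 to 191) and 195 in WT (169 to 224). At site 9 there were 178 in Q592* (153 to 206) and 184 in WT (158 to 213). At site 4 there were 83 in Q592* (66.1 to 103) and 114 in WT (94.0 to 137). These intervals overlap between the lines at each of these 3 sites, which does not show that the reads were equal. The ratio between the lines at site 4 is given below with its counting error.

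In the rest of the run the ChIP reads were 104 in Q592* and 120 in WT at site 2, 95 and 104 at site 3, 39 and 55 at site 5, 52 and 62 at site 6, and 106 and 109 at site 8. Sites 7 and 10, of Q592* alone, had 42 and 29. Site 7 thus had more reads than site 5 in Q592*, on a local background of 14 against 6.31. Sites 5 and 6 thus rested on at most 62 reads in either line, and site 8 differed between the lines by 3 reads. Outside the run, site 1 had 83 ChIP reads in Q592* and 95 in WT, site 11 had 46 and 59, site 12 had 126 and 137, and site 15 had 91 and 89, the only shared site with more reads in Q592*. Sites 13, 14 and 16 had 53 to 72 reads in Q592* and 66 to 97 in WT. Over the window the median was 83 reads in Q592* and 97 in WT, above the list medians of 77 and 61. The median fold, in contrast, was below that of its list in both lines.

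To set the lines side by side, the log2 ratio of ChIP reads at the summit, Q592* over WT, was taken relative to its median of -0.03 over 29558 shared SMC3 regions of the series. A factor common to all sites of a list, such as its read total, cancels in this difference. Whether the assumed fragment length cancels was not checked. It was below 0 at 14 of the 15 shared sites, with a median of -0.17 and a range of -0.46 (site 5) to 0.06 (site 15). Over all shared regions its quartiles were -0.17 and 0.18. Summed over the 15 sites there were 1362 reads in Q592* and 1563 in WT, a relative log2 ratio of -0.17 (95% counting interval -0.27 to -0.06). That interval holds counting error only. It leaves out the spread between libraries and that between regions, whose SD over all shared regions was 0.28. With the local background subtracted at each site the median was -0.066, the pooled value -0.10, and 10 of 15 sites lay below 0 and 5 above. The subtracted values ranged from -0.56 (site 4) to 0.31 (site 15), so at site 4 the difference grew.

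Without that subtraction, a ratio of ChIP reads beyond 1.5 times the median of all shared regions was seen at 0 of 15 sites. Of all shared regions 1.94% lay that far below the median and 2.84% that far above. The 95% counting interval of the value took in 0 at 14 sites, and the exception was site 4, at -0.43 with a counting SE of 0.21. The 6 shared sites of the run had a median of -0.20 and the 9 other sites one of -0.16. With 1 pool per line, variation between libraries could not be set against these values.

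**Figure D3:**
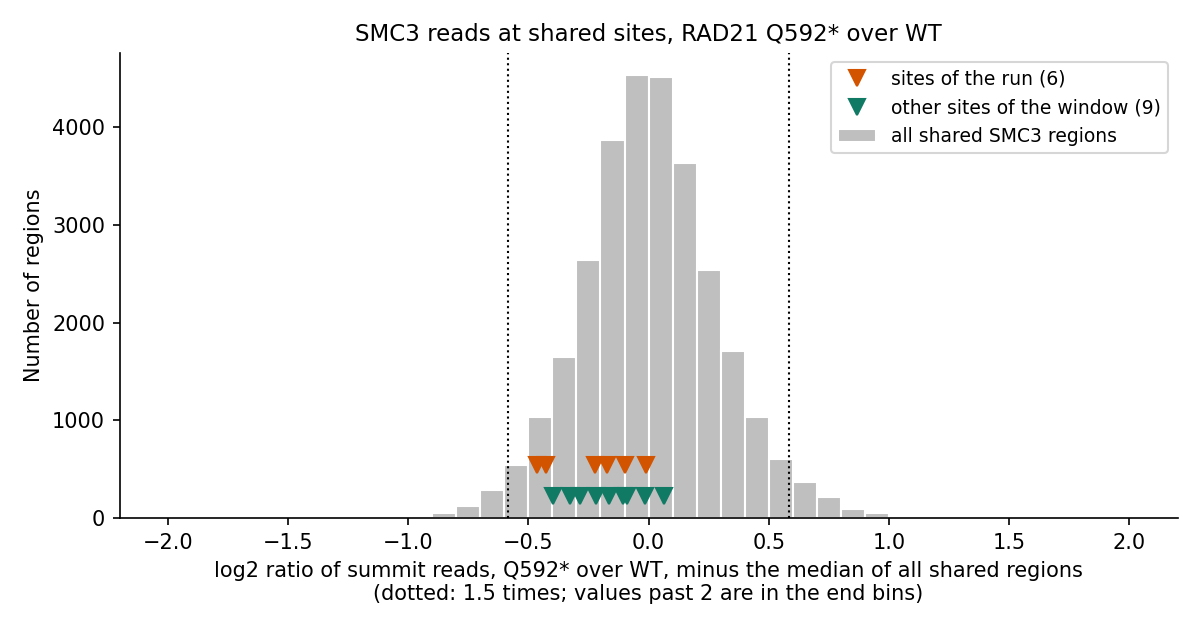
Histogram of the log2 ratio of SMC3 reads at the summit, Q592* over WT, minus its median over all 29558 shared regions (x axis), with the number of regions on the y axis. Triangles mark the 6 shared sites of the run and the 9 others of the window; 14 of the 15 stand left of 0 and all lie inside the dotted lines at 1.5 times.

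The local background of the domain differed between the lines. It was 5 to 20 reads at the Q592* peaks, with a median of 12, and 7.28 to 24 reads at the WT peaks, with a median of 18, where the medians of the lists were 9 in Q592* and 8 in WT. At site 5 it was 6.31 in Q592* and 17 in WT, at site 6 7.10 and 16, at site 15 14 and 24, at site 4 14 and 13.0 and at site 17 19 in both. The log2 ratio of the local background, Q592* over WT, relative to all shared regions, was below 0 at 14 of 15 sites, with a median of -0.55. No counting interval was computed for the background, so its difference at any single site was not tested.

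This difference reached beyond the domain. At the 67 shared SMC3 regions within 2 Mb of the window on either side the median relative log2 ratio of the background was -0.59, and at the 1540 shared regions on the rest of chromosome 11 it was -0.0045. The ChIP reads of these 67 neighbours had a median relative log2 ratio of -0.08 and those of the rest of the chromosome one of -0.02. A lower background raises the fold and the −log10 q of a peak at equal ChIP reads. At site 5, for example, the fold was 4.28 in Q592* on 39 reads and 2.62 in WT on 55 reads. The part of the background difference in the site-by-site fold values was not tested.

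**Figure D4:**
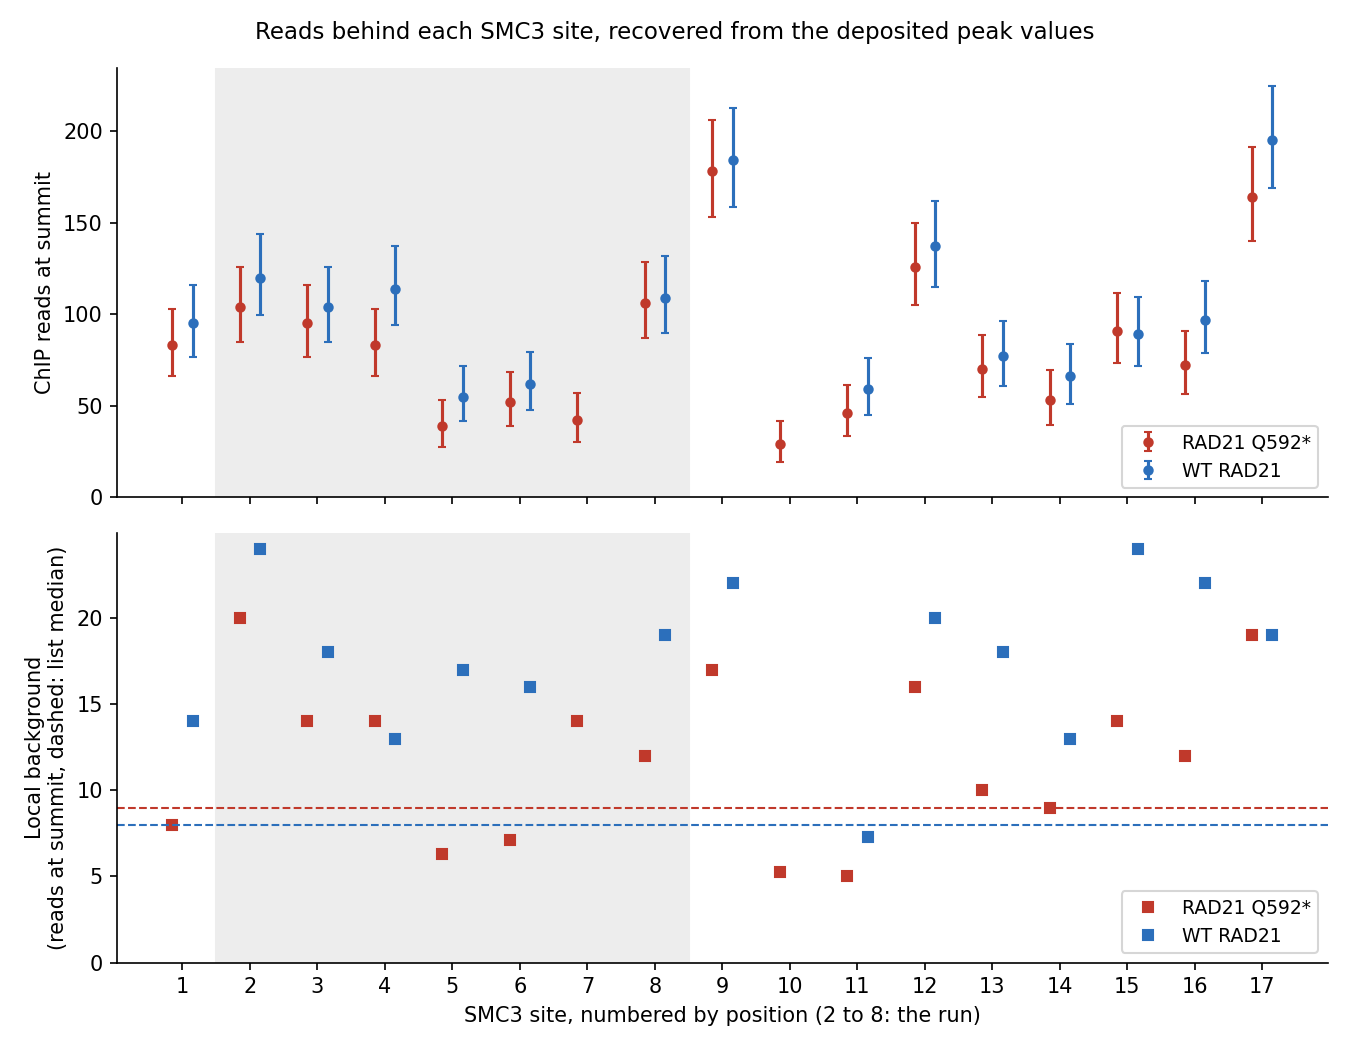
ChIP reads at the SMC3 summit with 95% Poisson intervals (top) and local background in reads (bottom) for the 17 sites in order of position on the x axis, Q592* left of WT at each site, with the run shaded. The read intervals of the lines overlap at all 15 shared sites, which does not show equal reads. The WT background, drawn without intervals, is above the Q592* one at 13 of them.

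GATA2 was called once in the domain and RUNX1 not at all. The GATA2 peak lay at 2120451 to 2120689, with its summit at 2120580, in the empty stretch between SMC3 sites 10 and 11, and was called in Q592* alone. Its fold was 5.68 and its −log10 q 31.5, and by the latter it lay above 71.1% of the Q592* GATA2 list. It rested on 107 ChIP reads (95% Poisson interval 87.7 to 129), each worth 0.736 background reads, and its local background was 13.0. Over all GATA2 regions of the series 40.1% were called in Q592* alone and 7.96% in WT alone. Of the 491 Q592* GATA2 peaks within 0.5 of its −log10 q, 83.9% had a WT partner, and this peak did not. The WT list reached down to a −log10 q of 2.01, and WT reads below that limit cannot be seen.

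No SMC3 site lay near this peak. The nearest SMC3 summit was 51.0 kb away, at site 11, in both lines. The next GATA2 peak was 204 kb away in both lines, above the end of the window at 2325027 in Q592* and 2325000 in WT, with folds of 11.6 in Q592* and 4.46 in WT. The nearest RUNX1 summits, at 2323321 in Q592* and 2323325 in WT, were 203 kb away and had folds of 11.8 and 4.09. On the low side the nearest GATA2 summits were 84.0 kb (Q592*) and 274 kb (WT) below the window and the nearest RUNX1 summits 118 kb (Q592*) and 274 kb (WT).

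The single GATA2 peak overlapped none of the 17 Q592* SMC3 peaks of the window. Of all Q592* SMC3 peaks 21.2% overlapped a GATA2 peak. With only 1 GATA2 peak called in the window, the count of 0 of 17 cannot be set against that share. Other overlaps could not occur, as no WT GATA2 peak and no RUNX1 peak was called in the window. RUNX1 regions of Q592* alone made up 44.4% and those of WT alone 9.59% of the RUNX1 regions of the series, and none of either kind lay in the window. The density of GATA2 peaks on the rest of chromosome 11 was 20.9 per Mb in Q592* and 13.7 per Mb in WT, and that of RUNX1 peaks 5.73 and 3.58 per Mb, compared with 3.33 (Q592*) and 0 (WT) per Mb for GATA2 in the window.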

How the data were processed

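The deposited data are 6 lists of peaks. The submitters' processing notes name Bowtie2, Picard, MACS2 and hg19; no source used here gives their versions or settings. The deposited values of each peak used were the fold, a ratio of pileup to local background, and the −log10 p-value and −log10 q-value, all at the summit. Per the labels' protocols, crosslinking took 10 minutes in 1% formaldehyde, and fragments averaged 200 to 400 bp.

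Peaks were members if their summit lay in the window. Peaks of both lines were joined by an overlap of 1 bp. ChIP reads and local background were solved from the fold, read as (pileup + 1) / (background + 1), and the Poisson p of each peak. The worth of 1 ChIP read was fitted in each list so that reads came out whole. Where a peak had several solutions, the one nearest a whole number was kept. In both SMC3 lists 100% of the solved peaks gave whole reads to within 0.01 of a read, a share that both steps favour. A p too small to invert was found at 9 Q592* and 14 WT SMC3 peaks. The fit took 1 ChIP read as worth 0.777 background reads in the Q592* and 0.838 in the WT SMC3 list, and 0.736 in the Q592* GATA2 list. It is not known which inputs formed the background. Recovery was checked on 7389 and 7417 simulated peaks and gave 100% of the reads exactly. These peaks were made by the same formulas, so the check covers the code and not whether the deposited values follow them. The depth per library is unknown.

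Every region of the window is accounted for, with full values for the 10 SMC3 sites of highest −log10 q and every GATA2 or RUNX1 region. Sites 5, 6, 7 and 10, and the comparison with the neighbouring 2 Mb, were added after values were seen. The members were chosen with earlier results of these data known. No test between lines was possible. Coordinates count from 1. No hg19 sequence was used here, so no site sequence is printed and the planned search for CTCF letters was not run. Python 3.11.15 was used, with scipy 1.17.1, numpy 2.4.6, matplotlib 3.10.9 and pandas 2.3.3.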

Additional observations from a re-analysis of the deposited data

How the results depend on the processing

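No paired analysis was possible because each list is named as a merge of its group and shows no replicate. No library could be left out either, and RUNX1 in Q592* had only 1. Of 24 alternatives to counts above 0, 23 stayed within 1.5 times the reported count; the other 52 concern counts of 0, most of which could not rise, and say nothing of stability. A −log10 q of at least 10 left 13 shared SMC3 regions and 1 of Q592* alone, which is site 6, whose WT peak has 9.36; sites 5, 7 and 10 then drop out. With equal list lengths 14 regions were shared and 3 were of Q592* alone, since site 5 of WT drops out. SMC3 regions of WT alone stayed at 0, and GATA2 at 1 region of Q592* alone, under all 4 alternatives for regions. The window narrowed by 50 kb on each side held 13 SMC3 peaks in Q592* and 11 in WT. The median relative log2 ratio of SMC3 reads was -0.14 when centred within quartiles of pileup and -0.066 with the local background subtracted, which removes more from WT, where the background was higher. The split of the sites by the run was chosen after seeing the data. Peaks below the lists' limits cannot be seen.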

Other observations

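The run of SMC3 sites was dense by the standard of the whole lists. Within a span of 4537 bp, the Q592* list held at least 7 SMC3 summits at 1 place in the genome, which is this run, and at least 6 at 3 places. The WT list held at least 6 at 11 places and at least 7 at 3 places, with up to 8. The span was taken from the run itself, so these counts are a description, and the Q592* count of 7 includes site 7 at the limit of its list.

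The order of the sites of the run by −log10 q was not the same in the 2 lists. In Q592* the order by −log10 q, strongest first, was 8, 3, 2, 4, 6, 5 and 7, and in WT it was 4, 8, 3, 2, 6 and 5. Sites 5 and 6 closed the order of shared sites, with 6 above 5, in both lists. The −log10 q depends on both the ChIP reads and the local background. Site 4 had 83 reads in Q592* and 114 in WT, on a background of 14 and 13.0. Site 2 had 104 reads in Q592* and 120 in WT, on a background of 20 and 24. What set the order was not tested. By ChIP reads in WT, site 2 with 120 stood above site 4 with 114.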
